A study of Mus musculus with 33 samples.

Results

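Mice drinking nicotinamide (NAM) for 14 days were compared with mice drinking it for 3 days, in the RNA libraries labelled lymph node. The comparison rests on 8 of the 33 libraries of the series, 4 at each time, and on the 18215 of 56414 table rows whose mean normalised read count reached 10 over the 13 libraries with that label. All animals were C57Bl/6 and none is given a genetic modification. Both groups received 0.5% NAM in the drinking water, which the labels give as replaced every 7 days and the study's methods as changed more often, so the contrast sets a longer against a shorter exposure and holds no untreated animal. The remaining libraries with the label, 3 from untreated mice and 2 from mice on NAM for 1 day, entered the fit to share its estimate of spread, and levels of the untreated, and of some transcripts and lists at 1 day, are given for reference. NAM is a form of vitamin B3 and a precursor of NAD. The labels number the replicates without saying that each came from its own animal, so the p-values measure the spread between these libraries, which may be partly technical.

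The transcripts described here belong to programs with well known roles in lymphoid tissue. Interferons, released when cells sense viruses or damage, act through STAT and IRF transcription factors to induce antiviral proteins, guanylate-binding GTPases and the chemokines that attract effector T cells. Neutrophil precursors in bone marrow, and in the spleen of mice, store serine proteases such as neutrophil elastase in their primary granules, and the transcripts of these proteases are made at the promyelocyte stage and are nearly gone from mature neutrophils. The mouse spleen also makes red blood cells and platelets and removes old red cells through its red pulp macrophages, whereas a lymph node does neither.

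Promoter sequences of Cxcl10 and Elane, which passed an adjusted p under 0.05 in limma, and of Prtn3, which did not, are shown first. Each is the 250 bases before the start of transcription in RefSeq, build GRCm38.p6, read 5′ to 3′ on the strand of the gene. Cxcl10 encodes a chemokine induced by interferon, and its sequence is shown because it was the transcript with the smallest p. Elane and Prtn3 encode neutrophil elastase and proteinase 3, which lie next to each other on chromosome 10. In Cxcl10 (chr5:92348890-92349139, minus strand) the capitals mark the core of an interferon-stimulated response element, searched as GAAANNGAAA on both strands, whose first base lies 213 bases before the start. In Elane (chr10:79886062-79886311, plus strand) and Prtn3 (chr10:79879417-79879666, plus strand) they mark GAGGAA, a motif bound by the myeloid factor PU.1, at 85 and 95 bases before the RefSeq start. The Elane row is annotated from 79886247 in GENCODE, so the end of the stretch shown for it lies inside that row.
Cxcl10: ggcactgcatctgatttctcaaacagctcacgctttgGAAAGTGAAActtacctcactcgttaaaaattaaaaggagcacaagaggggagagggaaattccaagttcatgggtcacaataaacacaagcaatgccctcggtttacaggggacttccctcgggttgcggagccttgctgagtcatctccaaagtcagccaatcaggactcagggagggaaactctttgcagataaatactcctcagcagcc
Elane: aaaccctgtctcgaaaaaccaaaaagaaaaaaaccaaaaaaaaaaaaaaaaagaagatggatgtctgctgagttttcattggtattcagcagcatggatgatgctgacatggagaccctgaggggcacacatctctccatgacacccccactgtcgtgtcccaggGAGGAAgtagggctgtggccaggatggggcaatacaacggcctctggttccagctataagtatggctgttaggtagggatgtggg
Prtn3: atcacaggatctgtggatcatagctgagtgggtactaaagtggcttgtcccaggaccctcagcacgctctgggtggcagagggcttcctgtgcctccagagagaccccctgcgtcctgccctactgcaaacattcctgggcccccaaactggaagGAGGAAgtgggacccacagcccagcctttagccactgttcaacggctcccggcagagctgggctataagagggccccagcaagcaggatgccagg
Over windows of 300 bases, from 250 before to 50 after the start, the GAAANNGAAA core was found in 3.44% of all 32851 windows, in 24 of 45 windows (53.3%) of the interferon-stimulated list and in none of 25 of the neutrophil granule list. GAGGAA was found in 28.3% of all windows, in 68.0% of the neutrophil granule windows (17 of 25) and in 40.0% of the interferon-stimulated windows. Further matches are shown as short stretches for 3 members described below. Bst2 encodes tetherin, which holds budding virus at the cell surface, Igtp an interferon-gamma-induced GTPase and Ctsg cathepsin G, a granule protease. The stretch of Bst2 (chr8:71537572-71537611, minus strand) holds the second of a pair of overlapping matches, and those of Igtp (chr11:58199507-58199546, plus strand) and Ctsg (chr14:56102770-56102805, minus strand) hold a single match each. The windows of Irf7 and Camp, searched for the same motif as their lists, held no match before the start, and Rtp4, Usp18, Gbp10 and Iigp1 had no window.
Bst2: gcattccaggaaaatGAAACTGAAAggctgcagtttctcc
Igtp: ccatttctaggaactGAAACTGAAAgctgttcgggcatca
Ctsg: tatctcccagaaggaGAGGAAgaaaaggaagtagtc
A match describes letters and not an occupied site.

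Most tissue markers went against the label. Values were scaled separately under each label, so small gaps between labels cannot be read. In the 13 libraries labelled lymph node, Glycam1, the sulfated ligand of L-selectin on high endothelial venules of lymph nodes, was at 1.585 to 12.38 normalised counts, against 108200 to 214200 in the 20 libraries labelled spleen. Conversely Spic, the transcription factor of red pulp macrophages, was at 6117 to 10490 under the lymph node label and at 774.3 to 1295 under the spleen label. The spleen-forming factors Tlx1 (351.1 to 573.5 against 0 to 4.071) and Nkx2-5 (166.7 to 267 against 0) had the same order. Of the 9 lymph node markers, Glycam1, Chst4, Lyve1, Ccl21a and Fut7 were lower in every library labelled lymph node than in any labelled spleen, Prox1 and Reln overlapped, Mmrn1 was at 0 throughout, and Madcam1, an addressin also made in the spleen, went with the label (577 to 955.8 against 137.4 to 401.9). The 8 libraries of the comparison carry spleen markers, and they are called labelled lymph node throughout. They held 30424968 to 44846118 reads. Summed pancreatic markers were at 683.35 to 1053.9 normalised counts at 14 days and 867.64 to 1174 at 3 days, with 10 of 20 markers at 0 in all 8 libraries, and summed mesothelial markers at 363.66 to 1683.4 and 591.06 to 1309.4. Their part in the results was not tested. One library outside the contrast, replicate 1 at 1 day, stood apart with a pancreatic sum of 155940. In bulk tissue, fewer cells of a type and less RNA per cell cannot be told apart.

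At an adjusted p under 0.05 in limma, 2 transcripts differed between 14 and 3 days, both lower at 14 days (0.011% of those tested), and none was higher. At an unadjusted p under 0.05, 568 transcripts were lower (3.12%) and 496 higher (2.72%), and the values at 14 days lay below all values at 3 days for 318 transcripts (1.75%) and above all of them for 272 (1.49%). The median log2 fold change over all transcripts was 0.00. DESeq2, run on whole reads recovered from the table, called 47 lower (0.258%) and 8 higher (0.0439%), of which 21 lay in the interferon-stimulated, interferon-gamma and neutrophil granule lists, whereas edgeR called 1, Cxcl10. Leaving out single libraries moved the 2 limma calls to 9 (without replicate 1 at 14 days), 6 (replicate 3 at 14 days), 4 (replicate 4 at 3 days), 1 (replicate 4 at 14 days or replicate 1 at 1 day) or 0 (replicate 2 at 14 days, replicate 1 or 3 at 3 days). In the text below, "fell" is used of the 2 transcripts that passed in limma, and the others are given by their values. Counts of list members at an unadjusted p under 0.05 stand beside 3.12% lower and 2.72% higher over all transcripts.

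Cxcl10 (chromosome 5, 92346641 to 92348890, mm10) fell. Its normalised read counts at 14 days were 2000, 2139, 2327 and 2273, a mean of 2185 ± 146.3 (SD, n = 4), and at 3 days 3381, 3289, 3858 and 3141, a mean of 3417 ± 309.7 (SD, n = 4). The groups did not overlap, and the 3 untreated libraries lay between them at 2661, 2650 and 3016. The 1-day libraries held 2896 and 2293. The mean at 3 days was 1.56 times that at 14 days, with a log2 fold change of -0.64 (SE 0.083, limma adjusted p = 0.0112). The row holds exons of Art3 on the opposite strand, and whether the counting used strand is not given in the sources used here. Without replicate 2 at 14 days, replicate 1 at 3 days or replicate 3 at 3 days the adjusted p was 0.062, 0.0571 and 0.0666.

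**Figure D1:**
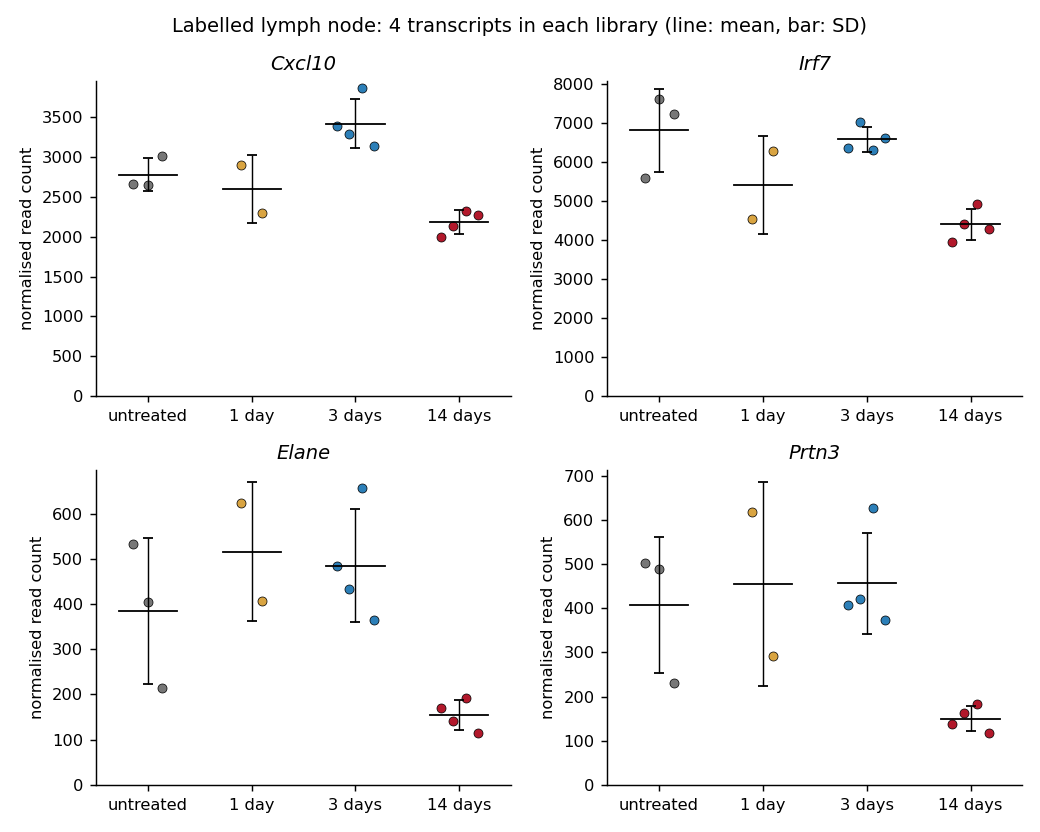
Normalised read counts of Cxcl10, Irf7, Elane and Prtn3 (vertical axes, from 0) in each library labelled lymph node, by time on NAM (horizontal axes). Points are libraries, lines are group means and bars are the SD. For all 4 transcripts every 14-day value lies below every 3-day value, as for Elane with 113.8 to 192.1 against 363.9 to 656.3.

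Among the 52 measured interferon-stimulated transcripts, 51 had a log2 fold change below 0, and the median was -0.28 against 0.00 over all transcripts. No member passed the adjusted test, 27 had an unadjusted p under 0.05 in the lower direction and none in the higher, and in 21 the libraries at 14 days all lay below those at 3 days. DESeq2 called 9 of them lower. Averaged on the log2(normalised count + 1) scale, the list stood at 10.66, 10.63, 10.61 and 10.62 in the 3-day libraries and at 10.26, 10.21, 10.47 and 10.36 in the 14-day libraries. The 3-day libraries lay close to one another and above all 4 at 14 days, while the untreated libraries, at 10.57, 10.87 and 10.79, reached both below and above the 3-day values, and the 1-day libraries, at 10.27 and 10.78, lay within the 14-day range and above the 3-day range.

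Irf7, the factor that amplifies the interferon response, was at 3957, 4410, 4923 and 4292 normalised counts at 14 days and at 6353, 7026, 6302 and 6606 at 3 days. The groups were apart, and the untreated libraries held 5588, 7594 and 7226. Its log2 fold change was -0.58 (SE 0.10, limma adjusted p = 0.0936, DESeq2 adjusted p = 0.000214), and its row holds exons of Phrf1. Irf7 passed in 3 of 20 alternatives, DESeq2 and limma with a replicate block (adjusted p = 0.0216) or on the 8 libraries alone (adjusted p = 0.0184). Usp18, a protease that removes ISG15 from proteins and dampens interferon receptor signaling, was at 833.8, 777.5, 1048 and 885.2 at 14 days against 1343, 1502, 1303 and 1336 at 3 days, a log2 fold change of -0.64 (limma adjusted p = 0.138, DESeq2 adjusted p = 0.00136). Rtp4, an interferon-induced receptor chaperone, held 2214 to 2693 against 3164 to 3648 (-0.52, limma adjusted p = 0.117). Bst2, whose promoter stretch is shown above, held 6489, 6388, 7363 and 7051 at 14 days against 8359, 8461, 8946 and 8307 at 3 days (-0.32, limma adjusted p = 0.147, DESeq2 adjusted p = 0.0067). Isg15, the ubiquitin-like protein that Usp18 removes, and Ifit1, which binds foreign RNA, had log2 fold changes of -0.53 and -0.63 without overlap of the groups, and limma adjusted p-values of 0.433 and 0.576.

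The transcripts that respond chiefly to interferon-gamma, GTPases that attack the membranes around intracellular microbes and class II antigen presentation genes, numbered 27. Cxcl10 was among them and was the only member past the adjusted test. At an unadjusted p under 0.05, 12 were lower and none higher, 24 had a log2 fold change below 0, the median was -0.15, and the groups were apart in 6. The 12 were GTPases, Cxcl10, Cxcl9 and Psmb8, a subunit of the immunoproteasome, and none of the class II genes, which were at -0.11 (H2-Aa), 0.00 (H2-Ab1), -0.07 (H2-Eb1), -0.08 (Cd74) and 0.12 (their activator Ciita). Psmb8 and the class II genes are named after their values were seen. Without replicate 3 at 3 days the count of 12 became 7. Gbp10, a guanylate-binding protein with near-identical family copies that reads could be split between, was at 144.2, 170.2, 205.8 and 185.6 normalised counts at 14 days against 402.1, 344.9, 318.6 and 233.9 at 3 days. The groups did not overlap, with a log2 fold change of -0.86 (limma adjusted p = 0.117, DESeq2 adjusted p = 0.000557). Igtp was at 5076 to 5655 against 5806 to 7368 (-0.32, limma adjusted p = 0.173), in a row that also holds exons of Irgm2, and Iigp1, an effector of the same GTPase family, at 2747 to 3281 against 3329 to 5094 (-0.42, limma adjusted p = 0.274).

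In the 39 measured chemokines and chemokine receptors, 27 members had a log2 fold change below 0. Cxcl10 passed, 9 members including it had an unadjusted p under 0.05 in the lower direction and 2 in the higher, and the median was -0.12. These were 23.1% and 5.13% of the list, against 3.12% lower and 2.72% higher over all transcripts. Cxcl9, which shares the receptor CXCR3 with Cxcl10, held 3245, 3512, 3021 and 3163 normalised counts at 14 days and 4055, 3570, 4630 and 3344 at 3 days. These groups overlapped (-0.26, limma adjusted p = 0.743). Ccl4, an attractant of macrophages and T cells, was at 110.9 to 137.7 against 155.4 to 205.7 (-0.45, limma adjusted p = 0.445), and Ccr9, a gut-homing receptor, at 1271 to 1586 against 1524 to 1900 (-0.29, limma adjusted p = 0.455), in a row that holds exons of 6 other genes, Lztfl1 and Slc6a20a among them. Ccl2, the attractant of monocytes, was at 29.32 to 62.9 against 60.01 to 107.9 (-0.77, limma adjusted p = 0.601). The 2 members in the higher direction were Ccl6 and Ccl9, named after their values were seen, and this count became 0 without replicate 4 at 14 days or replicate 2 at 3 days.

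**Figure D2:**
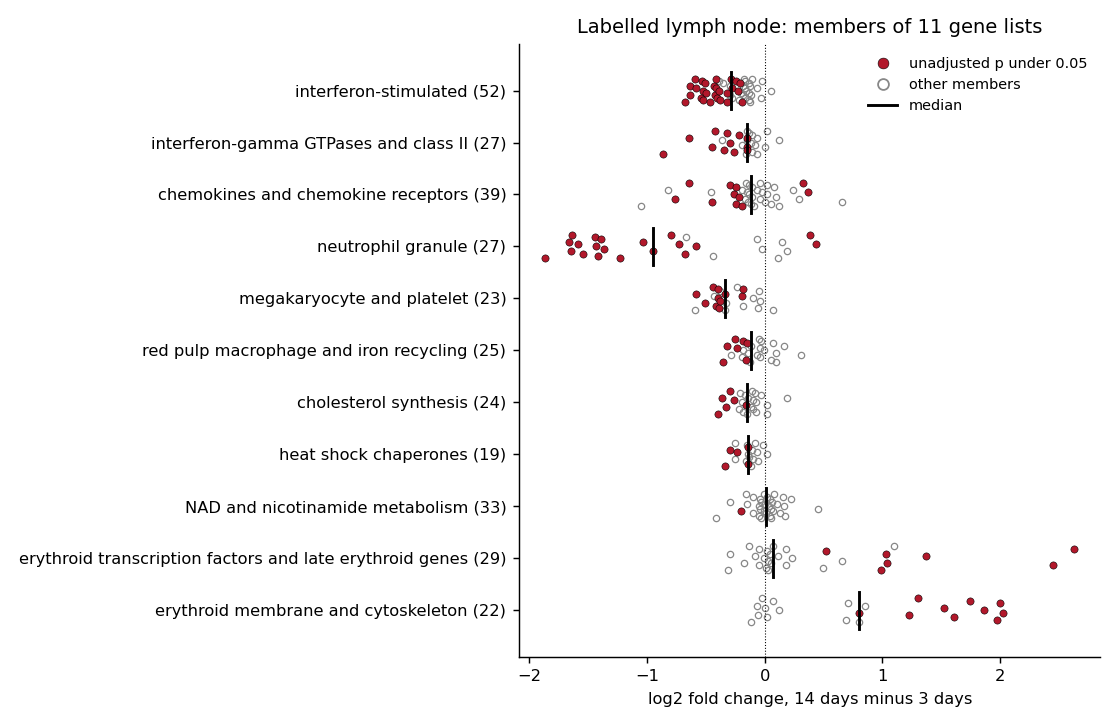
Log2 fold change of 14 against 3 days (horizontal axis) for each measured member of 11 gene lists (vertical axis, with the number of members). Filled points have an unadjusted p under 0.05 and bars are list medians. The interferon-stimulated members lie almost all to the left of 0 with a median of -0.28, the neutrophil granule members spread farthest to the left with a median of -0.95, and the red cell membrane members lie mostly to the right with a median of 0.81.

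Elane, neutrophil elastase (chromosome 10, 79886247 to 79888216), was the other transcript that fell. It was at 170.4, 141.7, 192.1 and 113.8 normalised counts at 14 days, a mean of 154.5 ± 34.11 (SD, n = 4), and at 485, 434.3, 656.3 and 363.9 at 3 days, a mean of 484.9 ± 124.6 (SD, n = 4). The groups did not overlap, and the untreated libraries held 533.8, 404.7 and 213.3, of which the last lay between them. The 1-day libraries held 624.3 and 407.3. The log2 fold change was -1.64 (SE 0.24, limma adjusted p = 0.0371), and the mean at 3 days was 3.14 times that at 14 days. The call was not kept by edgeR (adjusted p = 0.0704), without a filter on low counts (0.0745), without replicate 1 at 1 day (0.0996), or without any one of 5 of the 8 libraries (0.0519 to 0.223). DESeq2 gave an adjusted p of 0.000293.

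The 27 measured transcripts of the neutrophil granule list had the lowest median among the lists described here, -0.95. The list also holds granule genes of other granulocytes, named after their values were seen, and these were among the lower members, with log2 fold changes of -1.39 for Epx and -1.04 for Prg2 of eosinophils and -1.23 for Mcpt8 of basophils. At an unadjusted p under 0.05, 18 were lower and 2 higher, the groups were apart in the lower direction in 9, and DESeq2 called 6 lower. The lower members included the serine proteases of primary granules. Prtn3 (chromosome 10, 79879667 to 79883170) was at 137.1, 163.3, 183 and 117.8 normalised counts at 14 days and at 407.7, 421, 626.2 and 373.9 at 3 days, without overlap (-1.59, SE 0.25, limma adjusted p = 0.0567, DESeq2 adjusted p = 0.001). Ctsg held 36.46, 40.6, 57.18 and 33.93 against 117.1, 104.4, 175.7 and 78.47 (-1.45, limma adjusted p = 0.117, DESeq2 adjusted p = 0.000222). For all 3 proteases replicate 3 was the highest of the 3-day libraries. Mpo, myeloperoxidase of the same granules and named after its values were seen, was at 199.6 to 368.9 against 563.9 to 1227 (-1.42, limma adjusted p = 0.117).

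Camp, the cathelicidin of secondary granules, was at 1087, 279, 404.8 and 273.5 normalised counts at 14 days and at 2069, 1287, 2024 and 1102 at 3 days. Replicate 1 stood far above the other 14-day libraries, and without it the log2 fold change went from -1.86 (limma adjusted p = 0.117) to -2.31 (limma adjusted p = 0.00628). With all libraries and a replicate block it was -1.86 (limma adjusted p = 0.0308). Replicate 1 at 14 days also had the highest summed mesothelial markers of the 8, at 1683.4, and a link to its Camp value was not tested. The 2 members with an unadjusted p under 0.05 in the other direction were Retnlg and Csf3r, both named after their values were seen. Retnlg, a resistin-like protein of mature neutrophils, was at 2743, 2495, 3854 and 2970 at 14 days and 2340, 1952, 2557 and 1977 at 3 days (0.44, limma adjusted p = 0.553), and Csf3r, the receptor of granulocyte colony-stimulating factor, had a log2 fold change of 0.38 (limma adjusted p = 0.721). Of the 27 members, 22 had a log2 fold change below 0 and 5 above it. Also named after their values were seen, Cd177, S100a8, Ly6g, S100a9 and Mmp8 were at -0.73, -0.68, -0.67, -0.59 and -0.44, and Cxcr2 at -0.02. Whether precursors and mature neutrophils differed was not tested. As a mean over the list, the 3-day libraries were at 8.57, 8.37, 8.89 and 8.15 and the 14-day libraries at 8.04, 7.39, 7.70 and 7.44 on the log2 scale. Of the untreated libraries, 8.41 and 8.61 lay within the 3-day range and 7.75 within the 14-day range, and the 1-day libraries stood at 9.13 and 8.64.

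**Figure D3:**
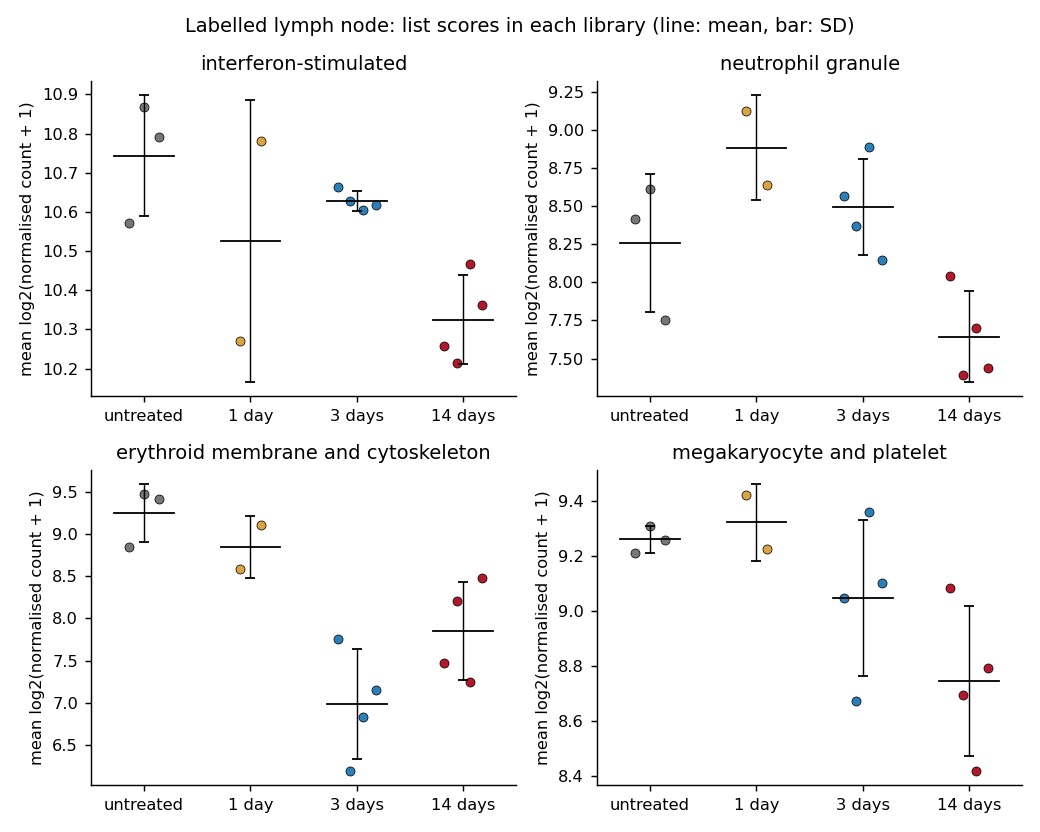
Mean of log2(normalised count + 1) over the members of 4 gene lists (vertical axes, not from 0) in each library labelled lymph node, by time on NAM. Points are libraries, lines are means and bars are the SD. The 14-day libraries lie below the 3-day libraries for the interferon-stimulated list (10.21 to 10.47 against 10.61 to 10.66) and the neutrophil granule list (7.39 to 8.04 against 8.15 to 8.89), while for the red cell membrane and platelet lists the groups overlap.

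Megakaryocytes shed platelets in marrow and, in mice, in spleen. Of 23 transcripts of these cells measured, 22 had a log2 fold change below 0 with a median of -0.34, and 11 had an unadjusted p under 0.05, all in the lower direction, but the groups overlapped for every member and none passed the adjusted test. The count of 11 depended on single libraries. It was 2 without replicate 3 at 3 days, 3 without replicate 3 at 14 days, 5 without replicate 2 at 14 days and 7 without replicate 1 at 3 days, and it reached 15 without replicate 1 at 14 days. Gp5, a subunit of the platelet receptor for von Willebrand factor, was at 365.4, 309.3, 249.3 and 359.3 normalised counts at 14 days against 438.6, 353.8, 657.2 and 504.7 at 3 days (-0.59, DESeq2 adjusted p = 0.0395). Clec1b, the podoplanin receptor, Tubb1, the platelet tubulin, and Pf4, platelet factor 4, had log2 fold changes of -0.33, -0.40 and -0.40, with limma adjusted p-values of 0.520, 0.741 and 0.744.

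Transcripts of the red cell membrane and its cytoskeleton lay in the other direction. Of 22 measured, 18 had a log2 fold change above 0 with a median of 0.81, 10 had an unadjusted p under 0.05, all higher at 14 days, and no member had separate groups or passed the adjusted test. The median became 0.49 without replicate 4 at 14 days and 1.19 without replicate 3 at 14 days. Rhag, a subunit of the Rh complex, was at 34.87, 58.75, 40.03 and 117.8 normalised counts at 14 days and at 37.56, 3.538, 14.56 and 13.85 at 3 days. Replicate 1 at 3 days lay within the 14-day range and the other 3 below it, and the untreated libraries, at 162.3, 336.3 and 277.4, were above all 8. The log2 fold change was 2.00 (SE 0.50, limma adjusted p = 0.312). Slc4a1, the anion exchanger band 3, had the same layout, at 347.1, 985.7, 235.6 and 1323 against 634.1, 32.72, 101.9 and 175.4, with 1786, 2996 and 4685 in untreated libraries (2.03, limma adjusted p = 0.622). Kel, the Kell blood group protease, was at 64.99, 203.9, 83.48 and 223.6 against 116, 13.27, 22.76 and 35.39 (1.87, limma adjusted p = 0.428). Ank1, the ankyrin that ties the membrane to its cytoskeleton, was at 26.95 to 94.81 against 10.01 to 38.67 (1.30, limma adjusted p = 0.622). Replicate 1 was the highest 3-day library for these 4 transcripts and replicate 2 the lowest for all but Ank1.

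**Figure D4:**
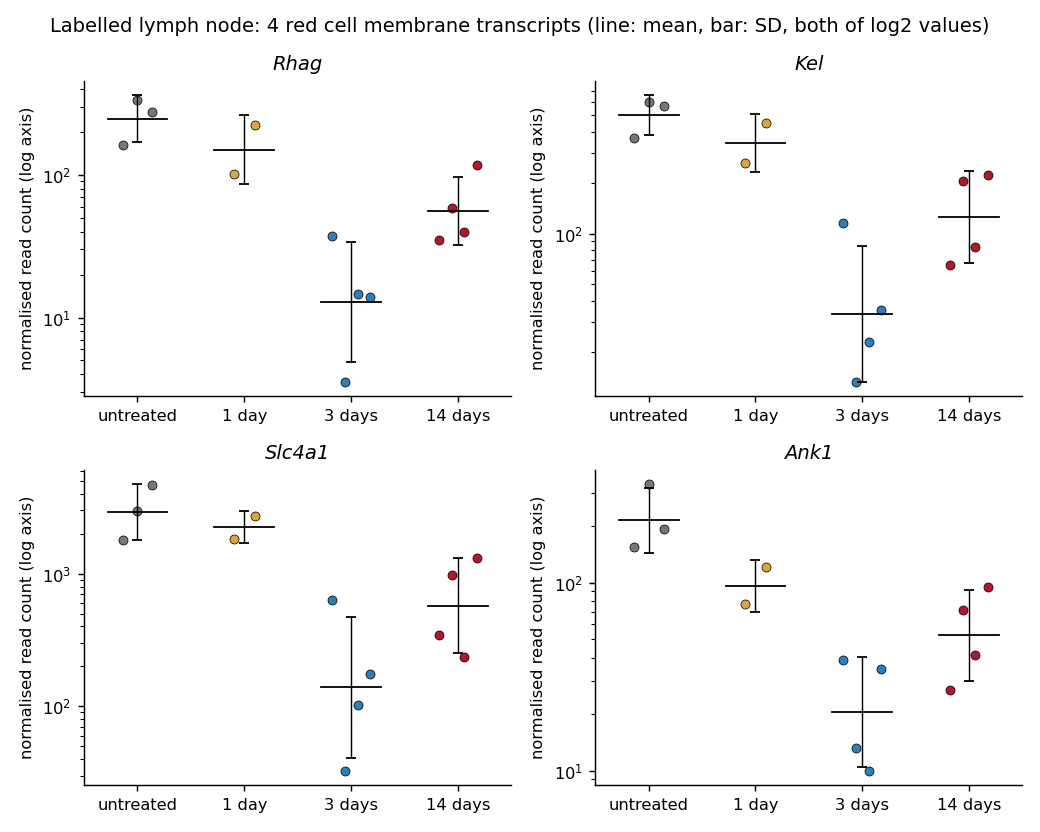
Normalised read counts of the red cell membrane transcripts Rhag, Kel, Slc4a1 and Ank1 (vertical log axes) in each library labelled lymph node, by time on NAM. Lines are means and bars the SD of log2 values. The 3-day libraries spread widely, as for Slc4a1 from 32.72 to 634.1, and overlap the 14-day libraries.

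Among 29 erythroid transcription factors and late erythroid transcripts, 7 had an unadjusted p under 0.05, all higher, and the median was 0.07 (0.01 without replicate 2 at 3 days, 0.26 without replicate 4 at 3 days). The 7 became 4 without replicate 2 or 4 at 14 days, replicate 2 or 3 at 3 days, or replicate 1 at 1 day. Redrum, a long noncoding RNA of maturing red cells, was at 7.926, 8.639, 5.718 and 22.95 normalised counts at 14 days and at 4.419, 0, 1.82 and 0 at 3 days, without overlap and below the untreated libraries at 45.93, 78.29 and 40.88. Its mean over these 8 libraries was under 10, so it passed the filter through the untreated and 1-day libraries, as Acsl6 did, and its values are given as a description. Its fold change on the log2(normalised count + 1) scale, which understates low transcripts, was 2.46. Redrum and Acsl6 are 2 of the 7 members counted. Hemgn, a nuclear regulator of erythroid cells, and Cldn13, a claudin of mouse erythroid cells, had log2 fold changes of 1.37 and 1.03. Klf1, the erythroid master factor, was at 64.99 to 202.6 against 20.34 to 119.3 (1.04, limma adjusted p = 0.826, and 0.58 without replicate 2 at 3 days). Gata1 lay the other way at -0.30 (limma adjusted p = 0.880, and -0.13 without replicate 2 at 14 days). So did Epor, the erythropoietin receptor, named after its values were seen, at -0.31 (limma adjusted p = 0.851). Of the 29 members, 21 had a log2 fold change above 0 and 8 below it. Apol8, of the apolipoprotein L family, was at 11.44 to 76.85 against 0 to 19.89 (2.63, limma adjusted p = 0.455), Acsl6, an acyl-CoA synthetase of red cell precursors, had a log2 fold change of 0.99 and Pklr, the red cell pyruvate kinase in a row that holds exons of Hcn3, one of 0.07.

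Globin transcripts persist in circulating reticulocytes. Of 7 measured, 1 had an unadjusted p under 0.05, Hbq1b, a theta globin, at 34.31 to 94.81 normalised counts against 12.38 to 47.51 (1.04, limma adjusted p = 0.740), and the median was 0.28 (-0.15 without replicate 2 at 3 days). Hba-a1 was at 257100 to 388300 normalised counts at 14 days and at 104000 to 466700 at 3 days, and Hbb-bs at 307700 to 452600 and 131000 to 534300. Replicate 2 at 3 days was the lowest library for both, and the log2 fold change of 0.28 in each became -0.19 and -0.15 without it. Alas2, the first enzyme of erythroid heme synthesis, also had its lowest value there, 2095 against 7148 to 10290 in the other 3-day libraries and 7092 to 10580 at 14 days (0.56, limma adjusted p = 0.884), and its log2 fold change without that library was 0.06. The Alas2 row holds exons of Apex2. Of 18 heme synthesis and iron uptake transcripts 2 had an unadjusted p under 0.05, both higher, with a list median of 0.12, which became 0.07 without replicate 2 at 3 days. The 2 became 5 without replicate 1 at 3 days and 1 without replicate 4 at 14 days. They were 11.1% of the list, against 2.72% higher over all transcripts. Ireb2, an iron sensor that controls mRNAs of iron uptake, was at 1552 to 1630 against 1359 to 1485, without overlap (0.18, limma adjusted p = 0.721).

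Red pulp macrophage transcripts had a median of -0.12 (-0.02 without replicate 2 at 14 days), with 7 of 25 lower and none higher at an unadjusted p under 0.05. The 7 became 3 without replicate 2 at 14 days or replicate 3 at 3 days, and 10 without replicate 2 at 3 days. Spic was at 7709, 6117, 8170 and 8177 normalised counts at 14 days and at 10460, 8503, 10490 and 9043 at 3 days, without overlap. The untreated libraries, at 9908, 9758 and 8918, lay within the 3-day range (-0.36, limma adjusted p = 0.309, DESeq2 adjusted p = 0.0492). Nr1h3, an oxysterol receptor of splenic macrophages, and C1qc, a chain of complement C1q, had log2 fold changes of -0.25 and -0.24, both with overlap. The heme oxygenase Hmox1 and the iron exporter Slc40a1, which release iron from digested red cells, were at -0.29 and -0.18 (limma adjusted p = 0.851 for both).

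In 24 cholesterol synthesis transcripts, 21 had a log2 fold change below 0, 6 had an unadjusted p under 0.05, all in the lower direction, and the median was -0.15. The 6 became 4 without replicate 1 at 14 days and 9 without replicate 4 at 3 days. Fdps, which makes farnesyl diphosphate, was at 937.6, 1102, 1068 and 1227 normalised counts at 14 days and at 1247, 1543, 1508 and 1263 at 3 days, without overlap (-0.36, limma adjusted p = 0.352). Mvd, the mevalonate decarboxylase, was also apart, at 423.1 to 549.9 against 576.7 to 696.3 (-0.40, limma adjusted p = 0.553). The isomerase Idi1 and the sterol oxidase Msmo1 had log2 fold changes of -0.29 and -0.26. Of 19 heat shock chaperones 18 lay below 0, with 5 lower at an unadjusted p under 0.05, a count that became 2 without replicate 1 or 2 at 14 days or replicate 3 at 3 days, 3 without replicate 1 at 3 days and 8 without replicate 4 at 14 days. Hspa8, the constitutive chaperone HSC70, was at 46240 to 58540 against 59970 to 73350 (-0.29, limma adjusted p = 0.518), and Hsph1 and Ahsa1, cochaperones of HSP70 and HSP90, had log2 fold changes of -0.34 and -0.14.

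Genes of fasting and fatty acid use had a median of 0.08 (0.03 without replicate 1 at 14 days), with 2 of 24 higher and none lower at an unadjusted p under 0.05, a count that became 6 without replicate 2 and 1 without replicate 1 at 14 days. The 2 were 8.33% of the list, against 2.72% higher over all transcripts. Cpt1a, which admits fatty acids into mitochondria, was at 2586, 2284, 2630 and 2525 normalised counts at 14 days and at 1715, 1562, 1430 and 2439 at 3 days. Replicate 4 at 3 days lay within the 14-day range and the other 3 below it (0.52, limma adjusted p = 0.275, DESeq2 adjusted p = 0.0443). Acot1, an acyl-CoA thioesterase, and Pdk4, which restrains pyruvate oxidation, had log2 fold changes of 0.34 and 0.28 (limma adjusted p = 0.773 and 0.930), and that of Pdk4 was 0.03 without replicate 1 at 14 days.

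The 33 measured transcripts of NAD and nicotinamide metabolism had a median of 0.01, and 1 had an unadjusted p under 0.05 (3.03%, against 3.12% lower over all transcripts). That member was Bst1, an enzyme that consumes NAD, at 584.8 to 654 normalised counts against 654 to 788.9 (-0.20, limma adjusted p = 0.843), in a row that holds exons of Fbxl5. Nampt, which converts nicotinamide to its mononucleotide, was at 2494, 2566, 2907 and 2738 at 14 days and at 3161, 3081, 2926 and 2724 at 3 days, with overlap (-0.15, limma adjusted p = 0.848). Nnmt, which methylates nicotinamide for excretion, was at -0.30 (limma adjusted p = 0.886) and Sarm1, an NAD hydrolase known from axon loss, at 0.46 (limma adjusted p = 0.851). These became -0.14 without replicate 3 at 14 days and 0.26 without replicate 2 at 3 days. When single libraries were left out, the list median ran from 0.0005 to 0.05 and its lower count from 0 to 2.

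Lymphocyte transcripts lay near 0. The T cell list had a median of -0.01 and the B cell list of -0.03, each with 1 member in each direction at an unadjusted p under 0.05. When single libraries were left out, both medians changed sign, from -0.02 to 0.01 for T cells and -0.05 to 0.01 for B cells. Their lower counts then reached 3 and 4 and their higher counts 3 and 2. NK cell and dendritic cell lists had medians of -0.09 and -0.08, with 3 members each in the lower direction. These were 12.5% and 13.0% of the lists, against 3.12% lower over all transcripts. No one of 18 immunoglobulin and plasma cell transcripts had an unadjusted p under 0.05, although all 18 had a log2 fold change below 0, with a median of -0.13. Of 40 mitosis transcripts none and of 38 DNA replication transcripts 1 (2.63%, near the share over all transcripts) had an unadjusted p under 0.05, with medians of -0.05 for both. These small counts moved with single libraries, to 8 of the plasma cell list without replicate 4 at 3 days, 7 of the NK cell list without replicate 2 at 3 days and 6 of the mitosis list without replicate 2 at 14 days, all in the lower direction. The medians moved too, that of the plasma cell list between -0.26 and -0.05 and that of the NK cell list between -0.18 and -0.01. The mitosis median changed sign, from 0.05 without replicate 1 at 14 days to -0.15 without replicate 2 at 14 days, and the DNA replication median ran from -0.11 to -0.01. Without replicate 3 at 14 days the dendritic cell list had a median of -0.02 and 5 lower members. Mki67 and Top2a, both of dividing cells, had log2 fold changes of 0.03 and -0.18, with exons of Rara in the Top2a row, and Gpat2, a glycerol-phosphate acyltransferase, was at 20.58 to 36.28 normalised counts against 9.232 to 19.89, without overlap (0.99, limma adjusted p = 0.706).

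Among the 8 transcripts that DESeq2 called higher at 14 days, 3 more are given here, chosen after their values were seen. Cyp26b1, which degrades retinoic acid, was at 178.3, 111.4, 60.61 and 122.8 normalised counts against 66.29, 44.22, 50.06 and 35.39 (1.19, limma adjusted p = 0.229). Replicate 3 at 14 days lay within the 3-day range. The complement receptor C5ar1 and the interleukin-22 decoy receptor Il22ra2 had log2 fold changes of 0.77 and 0.56 (DESeq2 adjusted p = 0.036 and 0.0488).

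The same contrast was set against that in the 10 libraries labelled spleen, 5 at each time, in a limma fit over all 33 libraries that tested the difference of the log2 fold changes for 17147 transcripts. No difference passed an adjusted p under 0.05 (0.0%, smallest adjusted p 0.174), 1723 had an unadjusted p under 0.05, edgeR called 0 and DESeq2 called 32. Under the spleen label alone limma called 192 of 18243 transcripts (1.05%). Cxcl10 held, under the spleen label, 492.6 to 1064 normalised counts after 14 days of NAM and 555 to 652.8 after 3, a log2 fold change of 0.10 (limma adjusted p = 0.846), and the difference between the labels was -0.75 (SE 0.24, limma adjusted p = 0.278). Irf7 had 0.20 under the spleen label and a difference of -0.78 (limma adjusted p = 0.241), and Elane 0.52 and -2.15 (limma adjusted p = 0.316). Because of the separate scaling, the contrasts are compared here and not the levels. Over the interferon-stimulated list the median log2 fold change was 0.12 under the spleen label, and 23 of 52 members had a difference with an unadjusted p under 0.05, all in the direction of a lower change under the lymph node label, a direction found in 4.82% of all transcripts tested (5.23% in the other). For the interferon-gamma list this was 10 of 27, and for the neutrophil granule list 4 of the 22 measured under both labels. Other lists had such members as well, with 7 of 25 in the B cell list and 5 of 25 in the red pulp macrophage list. The cholesterol synthesis list had a median of -0.16 under the spleen label too, with 8 of 24 lower and 2 higher at an unadjusted p under 0.05. For the platelet list that median was -0.17 over 18 members. The median differences between the labels were 0.02 and -0.01 for these 2 lists.

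One library of the spleen label decided the count. Without replicate 1 at 3 days labelled spleen, 495 transcripts had a difference past the adjusted threshold in limma, 165 lower under the lymph node label (0.962%) and 330 higher (1.92%). The 165 held 9 of the 52 interferon-stimulated members, 2 of the 27 of the interferon-gamma list and 0 of the 22 of the neutrophil granule list. Without replicate 3 at 14 days labelled lymph node the count was 1, and without any other single library of the 18 it was 0.

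**Figure D5:**
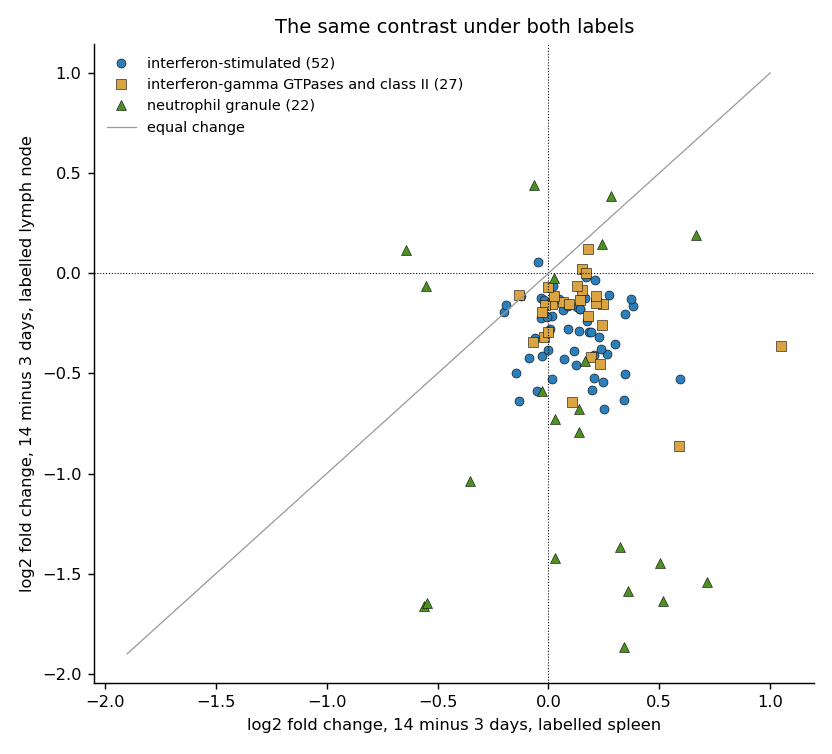
Log2 fold change of 14 against 3 days in the libraries labelled lymph node (vertical axis) against that in the libraries labelled spleen (horizontal axis) for members of 3 lists measured under both labels. The line marks equal change. Of the 52 interferon-stimulated members 48 lie below it, with medians of -0.28 and 0.12 on the respective axes.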

How the data were processed

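RNA was prepared from C57Bl/6 mice given NAM and sequenced as paired reads of 75 bases. The authors aligned reads with STAR 2.4.0 to mm10 and deposited a normalised read count per gene and library, a signal scaled by DESeq2 size factors and separately under each label. Whether counting used strand is not given in the sources used here. Of 71 named transcripts, 20 have rows that hold exons of other annotated genes. Of 56414 rows, 30657 carry no symbol and 639 several. Values were whole multiples of 1 read for 100.0% (tolerance 0.1 reads), so whole reads were recovered for DESeq2 1.42.0 (55 calls, 1770 rows given no adjusted p) and edgeR 4.0.16 (1 call), which give alternatives.

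The main test was limma 3.58.1 with an intensity trend on log2(normalised count + 1), in 1 fit of the 13 libraries labelled lymph node with 4 groups, on the 18215 rows with a mean of at least 10, two-sided, with Benjamini-Hochberg adjustment over all of them and a threshold of 0.05. Unless a tool is named, an adjusted p is from this fit. The difference between labels was tested in 1 fit of 33 libraries. A list was described by counts and its median, with no test. Tested on simulated data with 200 transcripts changed 2-fold among 18215, limma recovered 84.5% with 7.65% false calls and edgeR 85% with 6.593%. The changed transcripts were drawn above a higher mean than the filter, and transcripts were simulated independently of one another. Changes under 2-fold were not simulated, so these shares do not measure their recovery. Of 12 replicate pairs none was identical. R 4.3.3, Python 3.11.15 and RefSeq promoters were used.

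The members, gene lists and tests were chosen with earlier results of these data known. Named transcripts are those past the threshold with separate groups, up to 4 of smallest p in each list described, and a fixed panel, with exceptions marked in the text. A few of them are not reported here. Mitochondrially encoded transcripts matched no symbol. Alternatives were the pseudocount (0.1 and 5), the filter (none, mean of 50), both count tools, a replicate block, the 8 libraries alone, library weights, quantile and TMM scaling, the study's rule of p at most 0.05 with a 1.5-fold change, each replicate left out and, added after seeing the data, replicate 1 at 1 day left out.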

Additional observations from a re-analysis of the deposited data

Results flagged for a closer look

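In 222 sets of 4 values, from list scores and named transcripts, a library stood far from the other 3 of its group in 10, and chance alone gives this in about 1 of 20 sets. At 3 days, replicate 1 had a low stroma and collagen score, 9.1513 on the log2 scale against 9.489 to 9.513, and a high Hemgn value, 216.5 normalised counts against 61.9 to 80.78. Replicate 2 at 3 days was low for Fech, the ferrochelatase of heme synthesis, at 892.4 against 1175 to 1212, and for Sarm1 at 24.76 against 41.98 to 45.51. Replicate 3 at 3 days was high for Ccl4 at 205.7 against 155.4 to 161, and replicate 4 at 3 days was high for Acot1 at 483.2 against 352.3 to 365.7. At 14 days, replicate 1 was high for Camp at 1087 against 273.5 to 404.8, and replicate 3 was low for Csf3r at 319.1 against 444.1 to 451.8. Replicate 4 at 14 days was high for Redrum at 22.95 against 5.718 to 8.639 and for the spleen tissue marker score, at 10.0076 against 9.519 to 9.573 on the log2 scale.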

How the results depend on the processing

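The count of 2 transcripts called by limma was 2 with a pseudocount of 0.1 or 5, with a mean of at least 50, and under quantile or TMM scaling. It was 1 with no filter, 1 by edgeR and 55 by DESeq2, 4 with the replicate block, 4 with only the 8 libraries, 3 with library weights, 278 by the study's rule and 1 without replicate 1 at 1 day, and it ranged from 0 to 9 when 1 library of the comparison was left out. Replicate numbers were not taken as pairs, since deviations of libraries with the same number correlated at -0.088, 0.079, -0.025 and -0.040. The difference between the labels, run under the pseudocounts, filters, both count tools and the replicate block, had 0 calls in each but 32 by DESeq2 and from 0 to 495 when 1 library was left out. Of 1415 pairs of a named transcript and an alternative, 1368 kept direction and side of the threshold, 11 lost the call, 28 gained it and 8 changed sign, in 4 transcripts without a call. Leaving out 1 library moved the log2 fold change by over 1.5 times in 18 of the 71 named transcripts. Over all alternatives run, values ranged from -0.426 to -0.129 for Gata1, -0.277 to -0.102 for Slc40a1, -0.458 to -0.185 for Hmox1, -0.303 to -0.063 for Top2a, -0.536 to -0.26 for Pf4, 1.34 to 2.75 for Slc4a1, 1.26 to 4.18 for Redrum and 0.622 to 1.3 for Acsl6. Without 1 library, the log2 fold change ranged from -0.253 to 0.336 for Pklr, from -0.187 to 0.535 for Hba-a1, from -0.148 to 0.528 for Hbb-bs and from -0.134 to 0.193 for Mki67, which was -0.0883 with library weights. The causes of these shifts were not tested. At 30424968 to 44846118 reads a library, counting error bears mainly on transcripts of few reads, such as Acsl6 at 1.769 to 16.97 normalised counts.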
